A study of Mus musculus with 12 samples.

Results

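The enzymes described here carry out 9 steps of cholesterol synthesis: Hmgcs1, Mvd, Fdps, Fdft1, Sqle, Cyp51, Msmo1, Hsd17b7 and Dhcr7. They were taken by gene symbol from the arrays' value table, as rows annotated with exactly 1 symbol and, for a gene with several such rows, the row with the highest mean. All 9 were found among 19937 genes measured in this way. Their mRNA was measured in white fat of male mice on 12 Affymetrix arrays, with 3 arrays in each of 4 groups. KO mice carried a knockout of Ahnak, the gene of a giant scaffold protein, and WT mice were their wild-type controls. All animals were 18 weeks old. The high fat diet (HFD), given for 12 weeks, held 60% fat, 20% carbohydrate and 20% protein, and the other animals ate regular chow. The groups were thus KO on HFD, WT on HFD, KO on chow and WT on chow. The sources used here do not say how the allele was made, which fat depot was sampled or whether each replicate was a separate animal. The p-values therefore measure only the spread between these samples, which may be technical.

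Cholesterol is built from acetyl-CoA by way of mevalonate, farnesyl diphosphate, squalene and lanosterol. Most genes of the pathway are targets of SREBP-2, a transcription factor that is released from the endoplasmic reticulum when membrane sterol is low and held there by the INSIG proteins when sterol is plentiful. Adipocytes store a large pool of free cholesterol, much of it on the lipid droplet surface, and are known to take up most of it from lipoproteins rather than to make it.

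Ahnak was lower on KO than on WT arrays on both diets, with no overlap. Its log2 signal was 9.58, 9.40 and 9.45 on the KO HFD arrays, against 10.27, 9.68 and 10.04 on the WT HFD arrays. On chow it was 9.31, 9.27 and 9.42 on the KO arrays, against 9.94, 10.06 and 10.08 on the WT arrays. The KO signal was reduced and not lost, with a difference of -0.52 ± 0.13 on HFD (SE of the limma fit, adjusted p = 0.0207) and -0.69 ± 0.13 on chow (adjusted p = 0.379 over all genes). The HFD call was lost without KO HFD replicate 2 or 3 or WT HFD replicate 3, and with the HFD arrays fitted alone. The sources used here do not say whether the probes lie in the altered part of the gene. The 11 measured adipocyte markers had mean log2 signals from 10.31 for Slc2a4 to 13.16 for Fabp4, and without detection calls these could not be set against background. Correlations between arrays of a group were at least 0.985.

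The promoters of the enzymes are shown because the known common control of the pathway acts there, through sterol response elements read by SREBP and neighbouring CCAAT boxes read by NF-Y. RefSeq windows (assembly GRCm38.p6) matched 6 of the 9 enzymes. Those of Hmgcs1, Mvd, Msmo1, Hsd17b7 and Dhcr7 are printed as the 250 bases before an annotated transcription start, 5′ to 3′ on the gene's strand. Capitals mark CCAAT on either strand (ATTGG where it lies on the other) and the spelling TCACNCCAC of the sterol response element.
Hmgcs1, chr13:119690101-119690350 (plus strand): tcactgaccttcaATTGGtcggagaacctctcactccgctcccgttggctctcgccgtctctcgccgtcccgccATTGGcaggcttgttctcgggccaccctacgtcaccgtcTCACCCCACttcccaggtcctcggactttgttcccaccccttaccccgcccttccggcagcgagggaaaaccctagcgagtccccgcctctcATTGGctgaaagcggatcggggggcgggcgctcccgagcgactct
Mvd, chr8:122443423-122443672 (minus strand): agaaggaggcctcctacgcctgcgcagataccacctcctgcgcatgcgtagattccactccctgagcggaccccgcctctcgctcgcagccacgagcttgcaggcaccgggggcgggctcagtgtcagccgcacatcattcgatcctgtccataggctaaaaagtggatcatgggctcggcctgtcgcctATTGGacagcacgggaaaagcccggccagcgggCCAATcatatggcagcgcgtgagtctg
Msmo1, chr8:64733579-64733828 (minus strand): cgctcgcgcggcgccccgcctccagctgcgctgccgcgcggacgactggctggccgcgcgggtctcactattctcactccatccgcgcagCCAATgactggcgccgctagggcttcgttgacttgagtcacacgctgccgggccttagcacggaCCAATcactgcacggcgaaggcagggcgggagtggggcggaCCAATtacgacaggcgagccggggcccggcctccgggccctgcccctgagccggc
Hsd17b7, chr1:169969206-169969455 (minus strand): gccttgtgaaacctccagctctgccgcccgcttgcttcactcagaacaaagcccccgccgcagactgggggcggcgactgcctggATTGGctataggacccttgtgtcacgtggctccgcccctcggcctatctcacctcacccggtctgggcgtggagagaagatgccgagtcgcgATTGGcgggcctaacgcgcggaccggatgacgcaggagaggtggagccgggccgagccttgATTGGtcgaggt
Dhcr7, chr7:143829964-143830213 (plus strand): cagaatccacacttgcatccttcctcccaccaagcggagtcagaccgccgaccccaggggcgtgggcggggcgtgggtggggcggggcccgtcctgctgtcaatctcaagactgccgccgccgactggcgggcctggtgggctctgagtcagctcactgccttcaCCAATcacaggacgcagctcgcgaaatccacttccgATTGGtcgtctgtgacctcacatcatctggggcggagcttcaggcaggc
The 6 matched enzymes have 8 such windows, 3 of them of Dhcr7. CCAAT lay in 6 of the 8, against 33.8% of all 32851 windows of the same length, and in a window of 6 of 6 enzymes, against 37.5% of 27025 genes. GGGCGG, the GC box bound by Sp1, lay in 7 of the 8 windows, against 32.7% of all windows, and in a window of 6 of 6 enzymes, against 35.4% of genes. The strict spelling TCACNCCAC was found in 1 of the 8 windows, that of Hmgcs1, and in 1.05% of all windows. A looser spelling, TCACNNCA, which contains the strict form, was found in 6 of the 8 windows, against 11.4% of all windows, and for 5 of 6 enzymes (all but Mvd), against 13.0% of genes. Both strands were searched for each, and the spellings were settled after several had been tried on these windows. For Dhcr7 the window printed is the downstream one of 3 annotated starts and the only one of them that holds CCAAT. A match in these letters is a description and not a measured binding site.

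On HFD, most of these enzymes had lower mRNA signal in KO than in WT adipose tissue. Mvd, Fdps, Msmo1, Hsd17b7 and Dhcr7 fell in KO, by factors between 1.48 and 1.87, while Fdft1 rose 1.5-fold. Hmgcs1, Sqle and Cyp51 did not pass the test. A gene was called where its p from a limma fit to the 12 arrays, adjusted over all 19937 genes by Benjamini and Hochberg, was under 0.05. By that rule 5 of 9 enzymes fell and 1 rose, where 6.85% of all genes fell, 6.65% rose and 13.5% were called in either direction. The 9 were chosen with earlier results of these data known, so these counts are not independent evidence. The median log2 difference over the 9 was -0.67, beside 0.02 over all genes. In bulk tissue such as this, fewer cells of a type and less RNA per cell cannot be told apart. These values are plotted by array in the panel of the 9 enzymes.

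**Figure D1:**
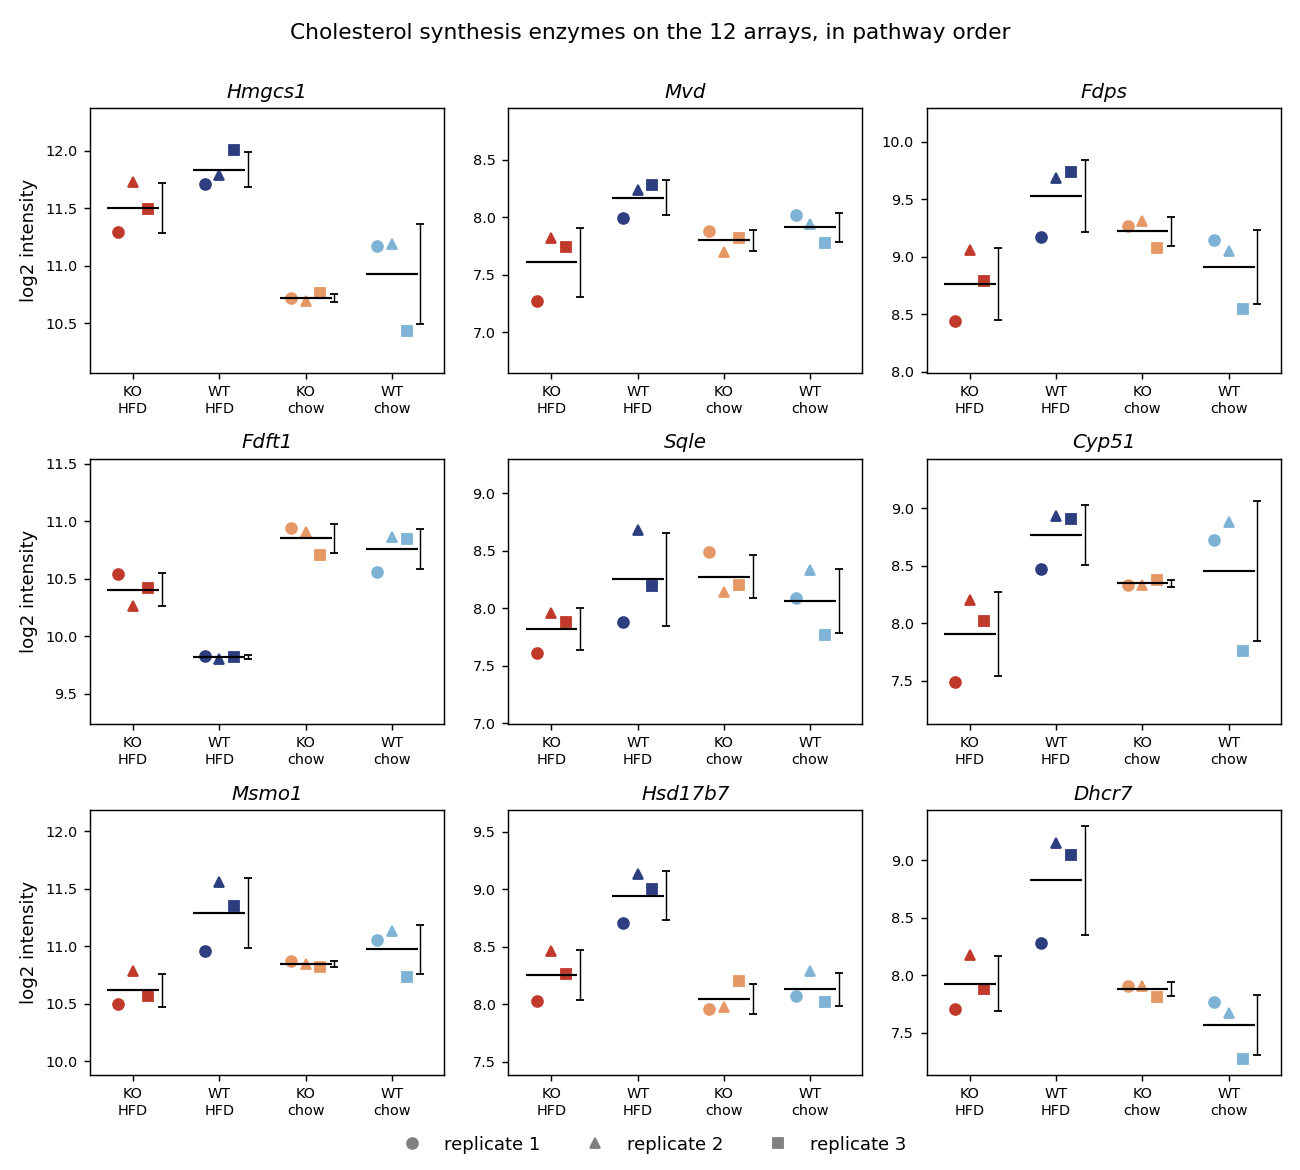
Log2 signal of the 9 enzymes on each of the 12 arrays, 1 panel per gene. Points are arrays and horizontal bars are group means of 3 arrays, with KO left of WT on each diet. Dhcr7 lay at 7.71 to 8.18 on KO HFD arrays and at 8.28 to 9.15 on WT HFD arrays, and Fdft1 lay higher on KO HFD arrays (10.26 to 10.54) than on WT HFD arrays (9.80 to 9.83).

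The early enzymes lead to mevalonate and the isoprenoid units. Hmgcs1 (probe set 10412466), the cytosolic synthase that makes HMG-CoA, had 11.29, 11.73 and 11.49 on the KO HFD arrays, against 11.71, 11.79 and 12.01 on the WT HFD arrays. These overlap at KO replicate 2 and WT replicate 1, and the difference of -0.33 ± 0.18 did not pass (adjusted p = 0.288, 95% interval -0.74 to 0.07). Mvd (10582310), which decarboxylates mevalonate diphosphate, had 7.27, 7.82 and 7.74 on KO HFD arrays and 7.99, 8.24 and 8.28 on WT HFD arrays. All KO values lay below all WT values, with KO replicate 1 the lowest of the 6, and the gene fell by 0.56 ± 0.14 (1.48-fold, adjusted p = 0.0224). Fdps (10499483), which joins isoprene units into farnesyl diphosphate at the branch point to dolichol, ubiquinone and protein prenylation, had 8.44, 9.06 and 8.79 in KO on HFD, against 9.17, 9.69 and 9.74 in WT on HFD. Here too no arrays overlapped, although KO replicate 2 came close to WT replicate 1. Fdps fell by 0.77 ± 0.20 (1.70-fold, adjusted p = 0.029).

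Farnesyl diphosphate is committed to sterols by squalene synthase, Fdft1 (10420730), and squalene is then oxidised by Sqle. Fdft1 had 10.54, 10.26 and 10.42 on KO HFD arrays, against 9.83, 9.80 and 9.82 on WT HFD arrays. The WT values were nearly equal and every KO value lay well above them, so that Fdft1 rose by 0.59 ± 0.10 (adjusted p = 0.00705) where 8 of the 9 enzymes had negative differences. A second probe set annotated to Fdft1 (10412909), which was not used to represent the gene, averaged 9.77 in KO on HFD and 9.14 in WT on HFD, a difference of 0.64. Sqle (10424349), a rate-limiting monooxygenase of the sterol branch, had 7.61, 7.96 and 7.88 in KO on HFD and 7.88, 8.68 and 8.19 in WT on HFD. KO replicates 2 and 3 lay at or above WT replicate 1, and the difference of -0.43 ± 0.20 did not pass (adjusted p = 0.188, 95% interval -0.87 to 0.00).

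The late enzymes turn lanosterol into cholesterol. Cyp51 (10527920), the lanosterol 14-alpha-demethylase, had 7.49, 8.20 and 8.02 on KO HFD arrays, against 8.47, 8.93 and 8.91 on WT HFD arrays. The arrays did not overlap, with KO replicate 1 the lowest of the 6, and the difference of -0.86 ± 0.27 did not pass (adjusted p = 0.0543). It passed without WT HFD replicate 1 (adjusted p = 0.032), WT chow replicate 2 (0.0462) or WT chow replicate 3 (0.0152), the chow arrays entering through the shared spread. With all 12 arrays Cyp51 passed in limma with an intensity trend (adjusted p = 0.049), a filter at a mean of 6 (0.0403) or array weights (0.00116). Msmo1 (10578916), the C4 methyl sterol oxidase, had 10.50, 10.78 and 10.57 in KO on HFD and 10.96, 11.56 and 11.35 in WT on HFD. It fell by 0.67 ± 0.15 (1.59-fold, adjusted p = 0.0145), with no overlap.

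Hsd17b7 (10359917) encodes the 3-keto sterol reductase of C4 demethylation, and Dhcr7 (10559312) the reductase that makes cholesterol from 7-dehydrocholesterol. Hsd17b7 had 8.03, 8.46 and 8.26 on KO HFD arrays, against 8.71, 9.13 and 9.0 on WT HFD arrays. Every KO array lay below every WT array, and the gene fell by 0.69 ± 0.14 (1.62-fold, adjusted p = 0.00993). Dhcr7 had 7.71, 8.18 and 7.88 in KO on HFD and 8.28, 9.15 and 9.05 in WT on HFD. WT replicate 1 was close to the highest KO array while WT replicates 2 and 3 were clear of all of them. Dhcr7 fell by 0.90 ± 0.21 (1.87-fold, adjusted p = 0.0196). The promoters of Msmo1, Hsd17b7 and Dhcr7 printed above each hold at least 1 CCAAT, as does that of Hmgcs1, which did not pass.

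Counted by arrays, 6 of the 9 enzymes had every KO HFD array below every WT HFD array and 1 had every KO array above, where 13.5% and 17.4% of all genes did so and 30.9% had no overlap in either direction. The number of enzymes called depended on single arrays. It was 2 of 9 without KO HFD replicate 1, WT HFD replicate 2 or WT HFD replicate 3, and 3 without KO HFD replicate 3. Leaving out WT HFD replicate 1 gave 8, and leaving out any other array gave 6 or 7. The count over all genes, 2691 with every array, moved too. It was 904, 1985 and 1261 when replicates 1, 2 and 3 of the KO HFD group were dropped in turn. Dropping replicates 1, 2 and 3 of the WT HFD group gave 3930, 1256 and 956 genes. Fdft1 and Hsd17b7 were called in all 12 of these fits. With the spread estimated from the 6 HFD arrays alone none of the 9 and 4 of all genes were called, and the lowest adjusted p among them was 0.054, for Fdft1.

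**Figure D2:**
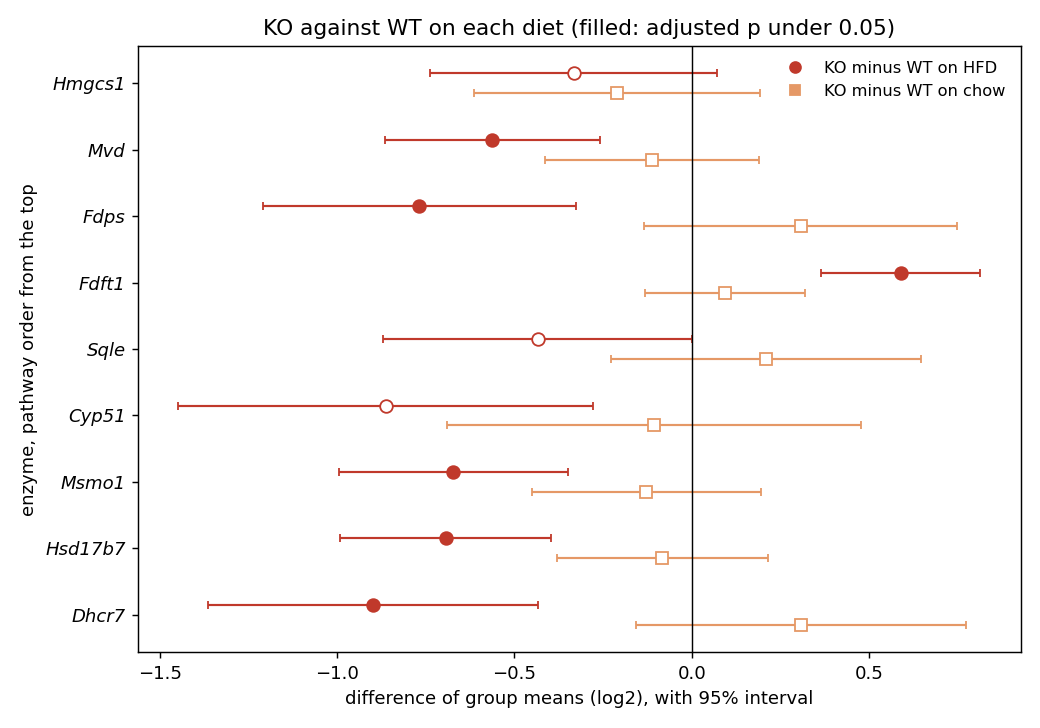
Difference of group means, KO minus WT, in log2 units for each enzyme on HFD (circles) and on chow (squares), with the 95% interval of the limma fit from 3 arrays a group. Filled symbols passed at an adjusted p under 0.05. The HFD differences run from -0.90 for Dhcr7 to 0.59 for Fdft1, and the chow differences, from -0.21 to 0.31, all have intervals that include 0.

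On chow, no enzyme was called between KO and WT tissue. The 9 differences ran from -0.21 for Hmgcs1 to 0.31 for Dhcr7, with 4 positive and 5 negative and a median of -0.08, beside 0.01 over all genes. The median was 0.11 without WT chow replicate 2. The lowest adjusted p among them was 0.945 in limma, and none reached an unadjusted p under 0.05, as 5.6% of all genes (1116) did. No gene at all was called in this comparison (0.0% of 19937). Dhcr7 was the only enzyme whose chow arrays did not overlap, with KO above WT. Of all genes 11.5% had no overlap, 5.79% with KO higher and 5.74% with KO lower. It had 7.91, 7.91 and 7.81 in KO on chow and 7.77, 7.67 and 7.27 in WT on chow.

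The remaining chow values show how wide the interval on a single enzyme was. Fdps had 9.27, 9.31 and 9.08 on KO chow arrays, against 9.15, 9.05 and 8.55 on WT chow arrays, a difference of 0.31 ± 0.20 with a 95% interval of -0.13 to 0.75. Cyp51 had 8.33, 8.33 and 8.38 in KO on chow and 8.72, 8.88 and 7.76 in WT on chow, so that the WT values lay on either side of the tight KO ones. Hsd17b7, called on HFD, had 7.96, 7.98 and 8.20 in KO on chow and 8.07, 8.29 and 8.02 in WT on chow, which overlap. Fdft1 also overlapped, at 10.94, 10.91 and 10.71 in KO on chow against 10.56, 10.86 and 10.85 in WT on chow.

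Whether the KO difference itself differed between diets was tested as the interaction, the HFD difference minus the chow difference. None of the 9 enzymes passed, and only 1 of 19937 genes did (0.00502%), Ppfibp2, named after its value was seen. The largest interactions were -1.21 ± 0.30 for Dhcr7 (adjusted p = 0.105) and -1.07 ± 0.28 for Fdps (adjusted p = 0.112), both of them genes with positive differences on chow. Fdft1 had 0.49 ± 0.15 (adjusted p = 0.129) and Hsd17b7 -0.61 ± 0.19 (adjusted p = 0.145). Unadjusted, 7 of the 9 had p under 0.05, as did 17.5% of all genes. Without WT HFD replicate 1, Fdps, Msmo1, Hsd17b7 and Dhcr7 passed, among 2060 of all 19937 genes that did. The different calls on HFD and chow are therefore not shown to be different effects in the fit to all arrays.

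Diet was also compared within each genotype, in comparisons that share the HFD arrays with the one above. In WT tissue Hmgcs1, Fdps, Hsd17b7 and Dhcr7 rose on HFD and Fdft1 fell, so 5 of 9 were called where 24.1% of all genes were (11.8% rose and 12.3% fell). Dhcr7 rose by 1.26 ± 0.21 (adjusted p = 0.00252), Hmgcs1 by 0.90 ± 0.18 (adjusted p = 0.00554), Hsd17b7 by 0.82 ± 0.14 (adjusted p = 0.00234) and Fdps by 0.62 ± 0.20 (adjusted p = 0.0456). Fdft1 averaged 9.82 ± 0.02 in WT on HFD and 10.76 ± 0.17 in WT on chow (SD, n = 3 arrays each, as for all group means), and fell by 0.94 ± 0.10 (adjusted p = 0.000508). Mvd, Sqle, Cyp51 and Msmo1 had differences between 0.19 and 0.32 that did not pass. The Fdps call was lost in 8 of the 12 fits that leave out an array: without KO HFD replicate 3, any KO chow array, WT HFD replicate 2 or 3, or WT chow replicate 2 or 3. It was also lost with the WT arrays fitted alone and after quantile normalization.

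In KO tissue 2 of the enzymes were called between diets. Hmgcs1 rose on HFD, with 11.50 ± 0.22 in KO on HFD and 10.72 ± 0.03 in KO on chow (difference 0.78 ± 0.18, adjusted p = 0.034). Fdft1 fell, with 10.41 ± 0.14 in KO on HFD and 10.85 ± 0.13 in KO on chow (difference -0.45 ± 0.10, adjusted p = 0.0315). The other 7 did not pass, so that 2 of 9 were called where 6.34% of all genes were (2.8% rose and 3.54% fell). Both calls were lost without KO HFD replicate 2 or 3 or any KO chow array, and that of Fdft1 also without WT HFD replicate 3, with a common array median (adjusted p = 0.0562) and with the KO arrays fitted alone (adjusted p = 0.0605). Fdps averaged 8.76 ± 0.31 in KO on HFD and 9.22 ± 0.12 in KO on chow, and Cyp51 7.91 ± 0.37 in KO on HFD and 8.35 ± 0.03 in KO on chow, with negative differences of -0.46 ± 0.20 and -0.44 ± 0.27. Dhcr7 averaged 7.93 ± 0.24 in KO on HFD and 7.88 ± 0.06 in KO on chow, which overlap.

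Across the 4 groups, WT on HFD had the highest mean for 7 of the 9 enzymes. The exceptions were Sqle, highest in KO on chow (8.27 ± 0.19) with WT on HFD next (8.25 ± 0.40), and Fdft1, for which WT on HFD was the lowest group. The bottom of the order varied. KO on HFD was lowest for Mvd, Fdps, Sqle, Cyp51 and Msmo1, KO on chow for Hmgcs1 and Hsd17b7, and WT on chow for Dhcr7. For Msmo1 the 4 means were 10.61 ± 0.14 in KO on HFD, 11.29 ± 0.30 in WT on HFD, 10.84 ± 0.02 in KO on chow and 10.97 ± 0.21 in WT on chow. In that order from high to low (WT on HFD, WT on chow, KO on chow, KO on HFD) no pair of neighbours passed the test: the differences were 0.32 for HFD against chow in WT (adjusted p = 0.15), -0.13 for KO against WT on chow (adjusted p = 0.99) and -0.23 for HFD against chow in KO (adjusted p = 0.398).

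In 3 of the 4 groups the same array was the lowest for most of the enzymes. KO HFD replicate 1 was the lowest of its group for 8 of the 9, WT HFD replicate 1 for 8 and WT chow replicate 3 for 8. In the KO HFD group replicate 2 was the highest for 8. Fdft1 was the exception in both HFD groups, where its order was turned round: replicate 1 was its highest array and replicate 2 its lowest. In KO on chow no array stood out: replicates 1, 2 and 3 were the lowest for 2, 3 and 4 of the enzymes. How often other genes order the arrays in the same way was not tested.

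**Figure D3:**
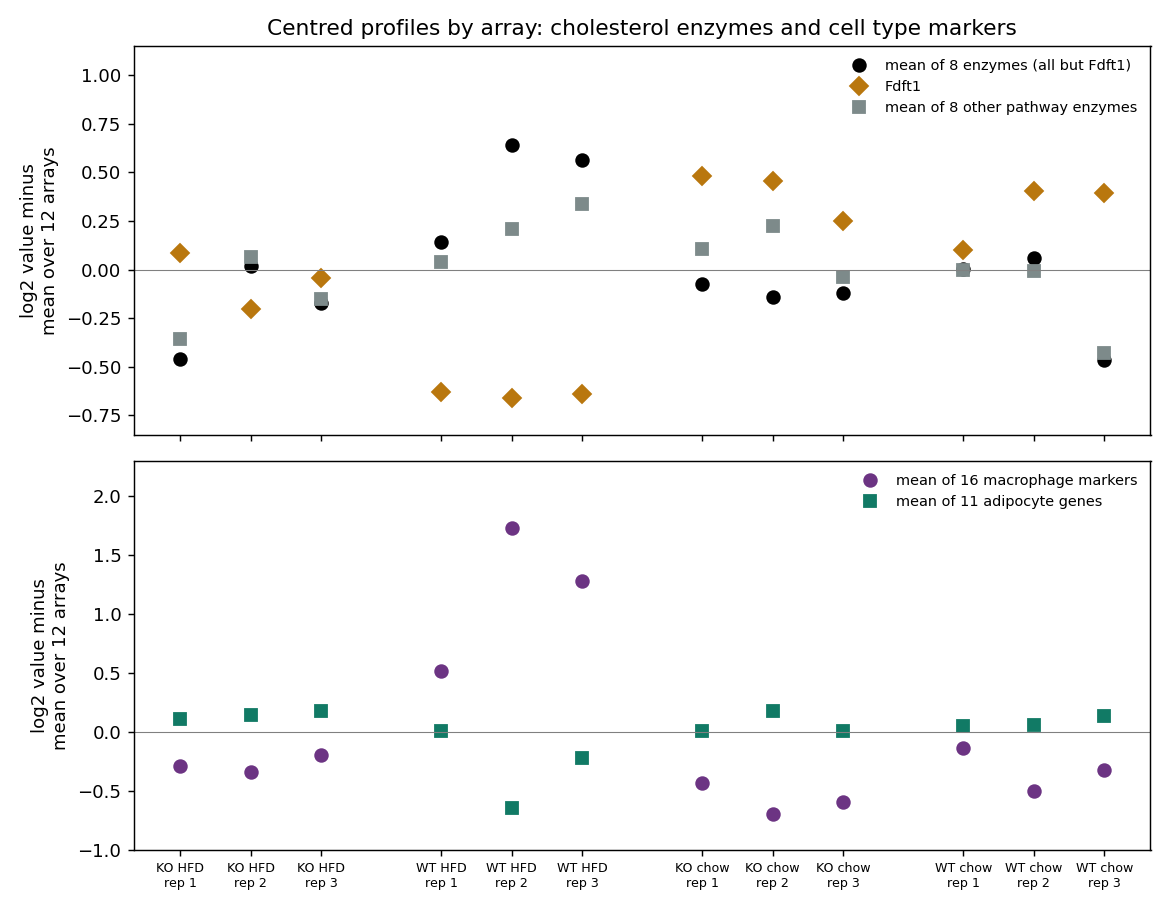
Log2 signal centred on each gene's mean over the 12 arrays, 1 point per array: above, the mean of the 8 enzymes without Fdft1, Fdft1 and the mean of 8 other pathway enzymes, and below, the means of 16 macrophage and 11 adipocyte markers. On the WT HFD arrays the 8 enzymes and the macrophage markers lie above 0 on all 3 arrays, while Fdft1 averages -0.64.

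Likeness was measured as the root mean square difference over the 12 arrays between centred log2 values. Against the average of the other 8, Msmo1 (0.12) and Mvd (0.13) were the closest enzymes, Hmgcs1 (0.43) was far and Fdft1 (0.69) the farthest. The average profile of all 9, Fdft1 included, departed from 0 by 0.25 on the same measure. Outside the 9, the genes most like this average of all 9 were Micall2 (0.097), Nup50, Cacul1, Lsm11, Lrrk1, Azin1, Ubtd1 and Rcor1 (0.114). They were picked from all other genes on these same arrays, so their likeness in group means follows from the choice. Micall2 averaged 0.21 below its mean in KO on HFD and 0.32 above it in WT on HFD.

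A list of other enzymes of cholesterol synthesis had 8 measured genes. On HFD 1 of the 8 fell in KO and 7 did not pass, where 6.85% of all genes fell. The median difference was -0.29, with all 8 negative (-0.80 to -0.07). Lss, the lanosterol synthase between Sqle and Cyp51, had 8.09, 8.75 and 8.49 on KO HFD arrays, against 8.82, 9.48 and 9.44 on WT HFD arrays. It fell by 0.80 ± 0.23 (adjusted p = 0.0384), a call lost without KO HFD replicate 1 or 3, WT HFD replicate 2 or 3, KO chow replicate 1 or WT chow replicate 1. Tm7sf2, a sterol C14 reductase, had -0.58 (adjusted p = 0.0698) and Idi1, the isopentenyl diphosphate isomerase, -0.37 (adjusted p = 0.176). On chow all 8 had positive differences, from 0.10 to 0.54 with a median of 0.24, and none passed. Among 7 genes of the isoprenoid branch, Nus1, a subunit of the dolichol-forming prenyltransferase, fell by 0.65 ± 0.14 (adjusted p = 0.0124) and Pggt1b, the beta subunit of a protein prenyltransferase, by 0.24 ± 0.07 (adjusted p = 0.0383). The other 5 did not pass and had positive differences (0.01 to 0.29), and the median of the 7 was 0.10. Neither call held without KO HFD replicate 1 or WT HFD replicate 3, and that of Pggt1b was also lost without KO HFD replicate 2 or 3, WT HFD replicate 1, KO chow replicate 2, or WT chow replicate 1 or 3.

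Of 6 sterol sensing genes measured, 1 rose in KO on HFD and 5 did not pass, with a median of 0.19. Of all genes 6.65% rose and 6.85% fell. Srebf1, whose SREBP-1c product drives fatty acid synthesis, rose by 0.70 ± 0.14 (adjusted p = 0.0112). Srebf2, which encodes SREBP-2, had -0.22 ± 0.12 (adjusted p = 0.288). Insig1, itself an SREBP target, had -0.85 ± 0.33 (adjusted p = 0.12). Fatty acid synthesis had 4 of 12 that rose and 8 that did not pass, with a median of 0.15: the acetyl-CoA carboxylases Acaca (0.93 ± 0.22) and Acacb (0.88 ± 0.18), the factor Mlxipl (0.77 ± 0.13) and Thrsp (1.30 ± 0.31). That count was 2 without KO HFD replicate 1 or 3 and 1 without WT HFD replicate 3.

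Genes of cholesterol uptake, trafficking and efflux moved on HFD as well, where 6.85% of all genes fell in KO and 6.65% rose. In uptake and trafficking 5 of 10 fell and 5 did not pass (median -0.62). They were the scavenger receptor Msr1 (-1.85 ± 0.35), the lysosomal lipase Lipa (-1.67 ± 0.28), the lysosomal exporters Npc1 (-0.66) and Npc2 (-0.58), and the receptor Lrp1 (-0.72). In efflux and related genes 3 of 9 fell, 2 rose and 4 did not pass (median 0.06). Nceh1, a cholesterol ester hydrolase of macrophages, fell by 2.42 ± 0.44, with the lipid transfer protein Pltp (-0.83) and the exporter Abcg1 (-0.66). Cyp27a1, the sterol 27-hydroxylase, rose by 0.94 ± 0.17 and Apoe by 0.32, and Abca1 had -0.16 (adjusted p = 0.318). Without KO HFD replicate 2 or 3 or WT HFD replicate 3, 3 uptake genes were called. Of the efflux list 3 were called without KO HFD replicate 1 or 3 or WT HFD replicate 2, and 2 without WT HFD replicate 3.

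**Figure D4:**
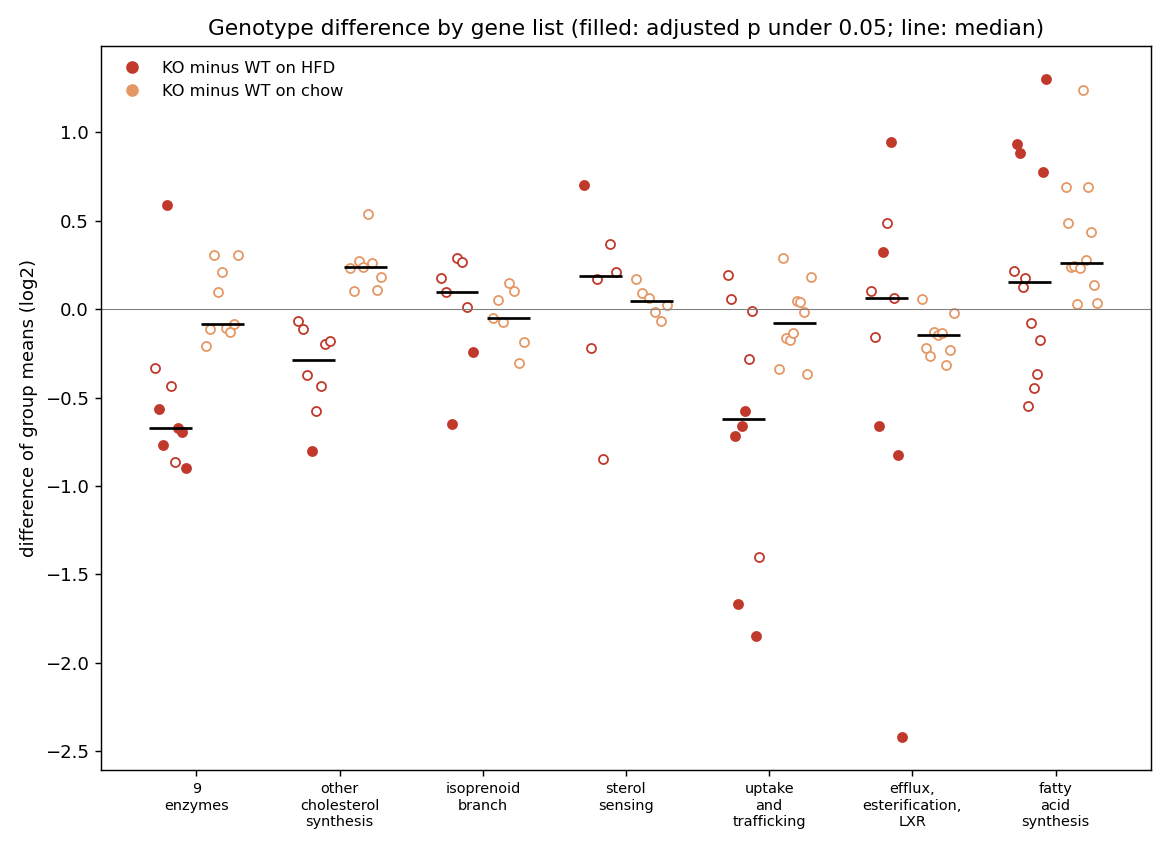
Log2 difference, KO minus WT, of each measured gene in the 9 enzymes and in related lists, on HFD and on chow, 1 point per gene with the median as a bar. On HFD the median is -0.67 for the 9 enzymes, -0.29 for the other synthesis enzymes and -0.62 for uptake and trafficking, against -0.08, 0.24 and -0.08 on chow.

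Markers of other cells differed between the same HFD groups, where 6.85% of all genes fell in KO and 6.65% rose. Of 16 macrophage markers 13 fell in KO and 3 did not pass, and the mean log2 level over the list was 9.28 to 9.43 on KO HFD arrays and 10.14 to 11.36 on WT HFD arrays (8.93 to 9.19 in KO and 9.12 to 9.49 in WT on chow). Cell cycle genes fell in 9 of 9, with list levels of 5.78 to 6.02 in KO on HFD and 6.65 to 7.96 in WT on HFD. Of 11 adipocyte markers 5 rose, 1 fell and 5 did not pass, with list levels of 12.39 to 12.46 in KO on HFD and 11.64 to 12.30 in WT on HFD. The adipocyte count was 2 without KO HFD replicate 1 or 3 or WT HFD replicate 2 or 3, and the cell cycle count 5 without KO HFD replicate 1.

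Within WT on HFD the array with the lowest enzyme values also had the lowest macrophage and cell cycle levels. Replicate 1, lowest for 8 of the 9 enzymes, had the lowest macrophage level (10.14, with 11.36 and 10.91 on replicates 2 and 3) and the lowest cell cycle level (6.65, with 7.96 and 7.46). In KO on HFD replicate 1 was again lowest for 8 enzymes. Macrophage levels varied little there and were lowest on replicate 2 (9.28, with 9.33 and 9.43 on replicates 1 and 3). Replicate 1 had the lowest cell cycle level of that group (5.78, with 6.02 and 5.95 on replicates 2 and 3). The adipocyte level was highest on WT HFD replicate 1 (12.30, with 11.64 and 12.06). On KO HFD replicate 1 it was the lowest of its group (12.39, with 12.43 and 12.46). WT chow replicate 3, also lowest for 8 enzymes, had the middle macrophage level of its group (9.30, with 9.49 and 9.12 on replicates 1 and 2). Its cell cycle level was 5.75, with 5.91 and 5.75, and its adipocyte level was the highest (12.42, with 12.33 and 12.34). The part of cell make-up in the enzyme differences was not tested. Of the remaining marker lists, B cell had 2 of 6 that fell, stromal progenitor 3 of 9 that fell and endothelial 1 of 8 that rose, where 6.85% of all genes fell and 6.65% rose. Without KO HFD replicate 1 or 3 the B cell count was 1 and the stromal progenitor count 2. The endothelial count was 0 without any KO HFD array or WT HFD replicate 2 or 3. None was called among 8 T and NK cell, 5 smooth muscle, 6 mesothelial, 7 epididymis and 5 skeletal muscle markers, and all 7 epididymis genes averaged under 6 log2 units in every group. All 6 B cell genes were also under 6 in KO on HFD, and 4 of them in WT on HFD. Of the 9 cell cycle genes 4 were under 6 in KO on HFD and 0 in WT on HFD.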

How the data were processed

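Per the labels, total RNA of white adipose tissue was amplified and labelled by the Affymetrix whole-transcript method, and affy is the tool named in the submitters' processing notes. The authors deposited 1 table of 34760 probe sets with values on a log2 scale (2.10 to 14.25), the base being inferred from that range. How they corrected background, summarized probes and normalized is not stated in the sources used here. Array medians lay close together, at 5.78 to 5.92, which does not show whether or how the arrays were scaled. Without detection calls in the table, signal over background is unknown.

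Platform annotation, given with the series, gave exactly 1 symbol to 21640 rows, several to 1321 and none to 11799. The row with the highest mean stood for each of 19937 genes, with no filter. Levels are compared within a gene, never between probe sets. limma 3.58.1 (R 4.3.3) was fitted to all 12 arrays with 4 group means, 8 residual degrees of freedom and eBayes. Tests were two-sided, with Benjamini-Hochberg adjustment over all genes. Differences are KO minus WT or HFD minus chow. The fit was tested on simulated data with known changes. Alternatives were the compared groups alone, quantile normalization, a common array median, array weights, an intensity trend, a filter at a mean of 6, the mean of all rows of a gene, a replicate block and leaving out each array. The alternatives for single pathway genes and for list counts were chosen after seeing the data.

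The 9 enzymes and the 17 gene lists were chosen with earlier results of these data known, and some of the enzymes had been named among those results, so their counts are not independent evidence. Named were the 9, Ahnak, each pathway list's called genes, a few fixed regulators and the 8 genes most alike in pattern.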

Additional observations from a re-analysis of the deposited data

How the results depend on the processing

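Over the alternatives the median of the 9 enzymes ran from -0.81 to -0.54 for KO against WT on HFD, from -0.14 to 0.11 on chow, from -0.31 to -0.16 for HFD against chow in KO, from 0.20 to 0.53 for HFD against chow in WT and from -0.73 to -0.42 for the interaction. When the fit held the compared groups alone, KO against WT on HFD called 0 of 9 enzymes and 4 genes, and HFD against chow in KO called 1 enzyme and 585 genes. Array weights, which reached 20.0 for a single array and whose estimate stopped before its tolerance, called 9 of 9 enzymes (8 lower and 1 higher in KO) for KO against WT on HFD and 7 for HFD against chow in WT. They raised the genes called to 7648 for the first, 2137 for HFD against chow in KO, 9985 for HFD against chow in WT and 2819 for the interaction, with 5 enzymes. A common array median left 1 enzyme for HFD against chow in KO, and a filter at a mean of 6 gave 84 genes for the interaction. For KO against WT on HFD an intensity trend called 7 of 9 enzymes, and so did the filter. Deviations of same-numbered arrays had correlations of -0.41 to 0.38 (4 of 18 over 0.1), beside -0.48 to 0.43 between other arrays (11 of 36). With 3 arrays a group these cannot show whether the numbers pair the samples. With the replicate block, HFD against chow in KO called 0 enzymes (adjusted p = 0.0563 for Hmgcs1 and 0.0616 for Fdft1) and 740 genes, and the interaction 0 genes. Leaving out each array in turn gave 2 to 8 enzymes and 904 to 3930 genes for KO against WT on HFD, and 0 to 1 genes on chow. It gave 0 to 2 enzymes and 62 to 1509 genes for HFD against chow in KO, 3072 to 5285 genes for HFD against chow in WT, and 0 to 4 enzymes and 0 to 2060 genes for the interaction. The signs that turned belonged to differences that had not passed, and did so when single arrays were left out. For KO against WT on chow, Fdft1 ran from -0.0043 (without WT chow replicate 1) to 0.17 and Cyp51 from -0.45 to 0.11, positive without WT chow replicate 1 or 2. For HFD against chow, Dhcr7 in KO ran from -0.079 (without KO HFD replicate 2) to 0.16, Sqle in WT from -0.030 (without WT HFD replicate 2) to 0.37 and Cyp51 in WT from -0.034 (without WT chow replicate 3) to 0.53. The interaction of Hmgcs1 ran from -0.25 to 0.13 (without WT chow replicate 3). The cause was not tested. With 3 arrays a group the precision is limited: on chow the 95% interval of Cyp51 ran from -0.69 to 0.48.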
